A study of Arabidopsis thaliana with 3 samples.

Results

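Salicylic acid is the plant hormone through which Arabidopsis thaliana defends itself against biotrophic pathogens. The 10 genes described here make it, switch its synthesis on, act in the EDS1-PAD4 signalling node upstream of it or make N-hydroxypipecolic acid. They were chosen by locus identifier for their roles, with earlier results of these data known, and are 10 of the 38094 genes of the TAIR10.1 annotation. They are the transcription factor genes SARD1 and CBP60G, the synthesis genes ICS1, EDS5 and PBS3, the N-hydroxypipecolic acid genes ALD1 and FMO1, and the signalling genes EDS1, PAD4 and SAG101.

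The data come from RNA-seq of whole seedlings of the crwn1 crwn2 double mutant, the pwo1 mutant and wild-type Col-0. The seedlings were 14 days old, came from seeds stratified for 2 days and stood upright on MS medium in long days, without any stated pathogen or hormone treatment. CRWN1 and CRWN2 encode lamin-like coiled-coil proteins at the nuclear periphery, and PWO1 a protein with a PWWP domain that has been linked to Polycomb group repression. The labels name neither the mutant alleles nor how many seedlings went into a library. The design text gives 3 biological replicates per genotype, but the values used here are the authors' own comparisons of each mutant with Col-0, made with edgeR and with Cuffdiff, so values per library, their spread and the levels of the genes are not shown. Without levels, the tissue could not be checked against marker genes, and in whole seedlings fewer cells of a type and less RNA per cell cannot be told apart.

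In the isochorismate route, ICS1 converts chorismate to isochorismate in the plastid, EDS5 exports it, and PBS3 joins it to glutamate, which yields a conjugate that breaks down to salicylic acid. ALD1 and FMO1 belong to a parallel route that turns lysine into pipecolic acid and then N-hydroxypipecolic acid, a mobile signal of systemic acquired resistance. SARD1 and CBP60G are related transcription factors that bind promoters of both routes. EDS1 pairs with either PAD4 or SAG101, and these lipase-like complexes relay signals from intracellular immune receptors with TIR domains.

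Promoter sequences of 4 of these genes are shown because ICS1, ALD1 and FMO1 are the members that the authors list in both mutants, and SARD1 is the member with the largest rise by edgeR. Each runs 5′ to 3′ on the gene's own strand, from 250 bases before the annotated gene start to 50 bases after it, in RefSeq build TAIR10.1. Capitals mark the motifs searched on both strands, which were GAAATTT, the core bound by SARD1 and CBP60G, TTGACC and TTGACT, the W-box bound by WRKY factors, TGACG, the core bound by TGA factors, and ACGCG and CCGCG, cores bound by CAMTA factors. GAAATTT overlaps its own reverse complement by all but 1 base, and where both read through the same letters the match was counted as 1 stretch. The ICS1 window is chr1:28070045-28070344 on the plus strand, that of ALD1 is chr2:5768167-5768466 on the plus strand, that of FMO1 is chr1:6653146-6653445 on the minus strand and that of SARD1 is chr1:27749199-27749498 on the minus strand.
ICS1: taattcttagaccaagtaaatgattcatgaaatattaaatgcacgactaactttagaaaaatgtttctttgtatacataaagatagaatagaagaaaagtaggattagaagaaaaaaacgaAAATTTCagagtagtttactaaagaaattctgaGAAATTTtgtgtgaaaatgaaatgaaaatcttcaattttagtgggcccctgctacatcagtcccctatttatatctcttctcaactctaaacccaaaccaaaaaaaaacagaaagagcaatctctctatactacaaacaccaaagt
ALD1: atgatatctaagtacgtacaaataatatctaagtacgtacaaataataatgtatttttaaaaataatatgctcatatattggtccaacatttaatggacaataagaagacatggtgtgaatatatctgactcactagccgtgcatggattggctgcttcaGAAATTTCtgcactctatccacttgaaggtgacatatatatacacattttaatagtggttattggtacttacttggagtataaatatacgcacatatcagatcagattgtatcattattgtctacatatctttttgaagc
FMO1: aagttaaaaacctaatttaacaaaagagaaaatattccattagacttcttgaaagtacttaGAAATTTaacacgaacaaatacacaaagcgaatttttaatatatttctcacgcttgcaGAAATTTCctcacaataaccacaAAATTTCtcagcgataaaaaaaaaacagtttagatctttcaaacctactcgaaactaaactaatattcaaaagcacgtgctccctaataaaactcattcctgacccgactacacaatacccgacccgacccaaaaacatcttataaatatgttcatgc
SARD1: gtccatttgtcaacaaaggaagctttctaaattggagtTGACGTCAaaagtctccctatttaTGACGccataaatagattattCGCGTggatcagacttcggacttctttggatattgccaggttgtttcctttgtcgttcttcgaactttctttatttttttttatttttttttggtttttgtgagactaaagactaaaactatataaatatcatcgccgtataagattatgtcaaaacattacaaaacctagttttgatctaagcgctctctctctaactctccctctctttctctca

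The first comparison asked how these genes differed between crwn1 crwn2 and Col-0. In the double mutant 9 of the 10 were higher, none was lower, and CBP60G was not listed. A gene counts here as higher or lower when the authors' table lists it, and 2.87% of all 38096 genes considered were listed as higher in crwn1 crwn2. The genes the authors tested are not known, so that share is a lower limit; among the 27562 protein-coding genes of the annotation it was 3.92%. The median log2 fold change of the 9 members was 1.75 in the authors' deposited table, against 1.01 over all 1093 genes listed there as higher. The mutated genes CRWN1 and CRWN2 had negative values in the authors' deposited table (-3.03 and -2.42), so positive ones mean higher in the mutant.

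**Figure D1:**
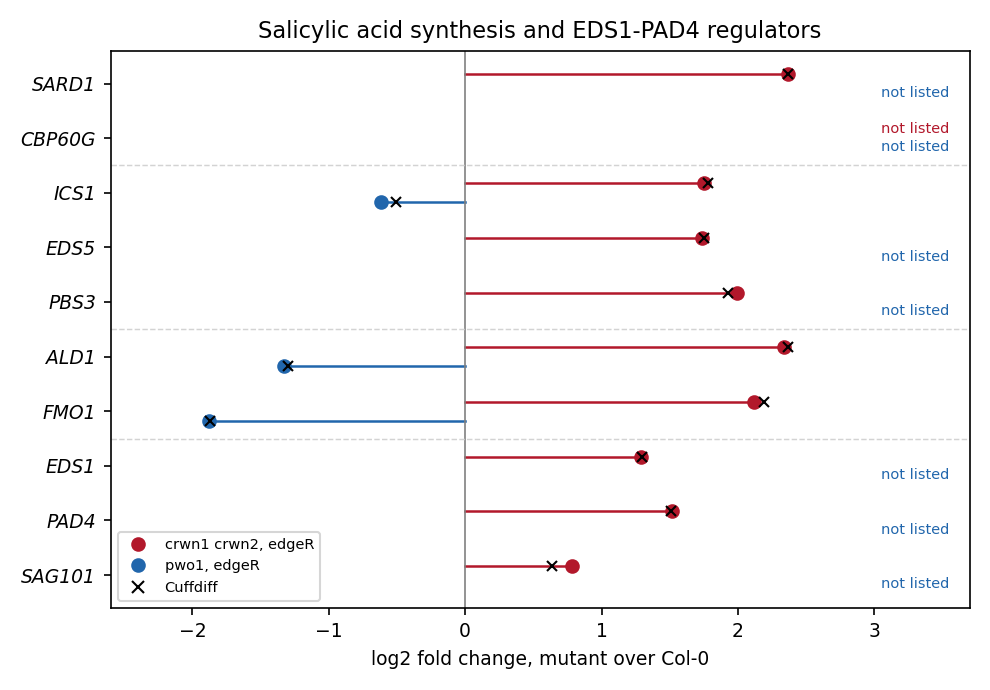
Log2 fold change of each of the 10 genes (x axis, mutant over Col-0), with coloured points for edgeR in crwn1 crwn2 (red) and pwo1 (blue) and crosses for Cuffdiff; dashed lines separate the transcription factors, the synthesis genes, the N-hydroxypipecolic acid genes and the EDS1 node. By edgeR in the authors' deposited tables, the 9 genes listed for crwn1 crwn2 lie between 0.78 and 2.37, and the 3 listed for pwo1 between -1.88 and -0.62.

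The transcription factor gene SARD1 and the aminotransferase gene ALD1 had the largest rises of the members, with SARD1 first by edgeR and both at 2.37 by Cuffdiff in the authors' deposited table. By edgeR the authors' deposited table gave SARD1 a log2 fold change of 2.37, a 5.16-fold rise in crwn1 crwn2 (edgeR p = 7.37e-23). By p-value SARD1 stood at rank 15 of the 1935 genes listed in the authors' deposited table. The SARD1 locus (AT1G73805, chr1:27744790-27749248, minus strand) overlaps GIP2 on the opposite strand by 640 bases, and GIP2 was listed for neither mutant. CBP60G (AT5G26920, chr5:9475679-9478777, plus strand), the relative that shares work with SARD1 in immunity, was listed for neither mutant, which does not show that it did not change. The aligned coding sequences of SARD1 and CBP60G were 63.4% identical over 1294 bases, and none of the 1257 stretches of 100 coding bases of SARD1 occurred in CBP60G.

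The 3 genes of the isochorismate route rose by close amounts. ICS1 (AT1G74710, chr1:28070295-28074177, plus strand) was 3.37-fold higher in crwn1 crwn2, at 1.75 on the log2 scale of the authors' deposited table (p by edgeR 7.14e-15). For EDS5 (AT4G39030, chr4:18185437-18189224, plus strand), the transporter gene, the authors' deposited table gave 1.74, or 3.34-fold (p by edgeR 4.57e-15). EDS5 shares its last 213 bases with the gene AT4G39040 on the other strand, which was listed for neither mutant. PBS3 (AT5G13320, chr5:4267456-4271064, plus strand) was at 1.99, or 3.96-fold, in the authors' deposited table (p by edgeR 2.51e-16).

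The pair of N-hydroxypipecolic acid genes rose by more than the isochorismate genes in fold change, but with larger p-values. ALD1 (AT2G13810, chr2:5768417-5772266, plus strand), whose product is the aminotransferase that acts on lysine, was at 2.34, or 5.05-fold, in the authors' deposited table (edgeR p = 2.27e-08). FMO1 (AT1G19250, chr1:6650476-6653195, minus strand), the gene of the monooxygenase that hydroxylates pipecolic acid, was at 2.12, or 4.35-fold, in the authors' deposited table (edgeR p = 1.81e-06). By p-value ALD1 and FMO1 held ranks 253 and 456 in the authors' deposited table of 1935 genes, against ranks 43 to 55 for ICS1, EDS5 and PBS3. Whether ALD1 and FMO1 rose by more than the isochorismate genes was not tested, since the values per library were not analysed here.

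The genes of the EDS1 node had the smallest rises of the members. EDS1 (AT3G48090, chr3:17755329-17758147, minus strand) was at 1.29, or 2.45-fold, in the authors' deposited table (edgeR p = 5.39e-14). PAD4 (AT3G52430, chr3:19431095-19434450, plus strand), the partner that acts with EDS1 in basal resistance, was at 1.52, or 2.87-fold, in the authors' deposited table (edgeR p = 4.87e-11). SAG101 (AT5G14930, chr5:4828499-4830982, plus strand), the other partner of EDS1, was at 0.78, or 1.72-fold, in the authors' deposited table (edgeR p = 3.76e-05). SAG101 was the only one of the 9 listed members below a 2-fold change by edgeR; 1.45% of all genes considered were at least 2-fold higher in the authors' deposited table. A p under 0.001 by both tools was met by 8 members, SAG101 again being the exception, and by 2.08% of all genes considered, as higher, in the authors' deposited table.

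EDS1 has a related neighbour, AT3G48080, 138 bases away on the same strand, which the authors' deposited table describes as an alpha/beta-hydrolase and sets beside EDS1 as its best protein match. It was also higher in crwn1 crwn2, at 1.52 in the authors' deposited table (edgeR p = 1.30e-08), and was not listed for pwo1. The aligned coding sequences of EDS1 and AT3G48080 were 84% identical over 1859 bases, and none of the 1773 stretches of 100 coding bases of EDS1 occurred in the neighbour. The sources used here do not give how reads that match both genes were counted. The first 60 coding bases of each, from build TAIR10.1 on the minus strand at chr3:17757633-17757692 for EDS1 and chr3:17755086-17755145 for AT3G48080, show how close the copies are, with the 9 positions that differ in capitals.
EDS1: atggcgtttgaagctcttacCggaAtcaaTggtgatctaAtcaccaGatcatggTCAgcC
AT3G48080: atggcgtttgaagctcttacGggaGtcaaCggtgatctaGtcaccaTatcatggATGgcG

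**Figure D2:**
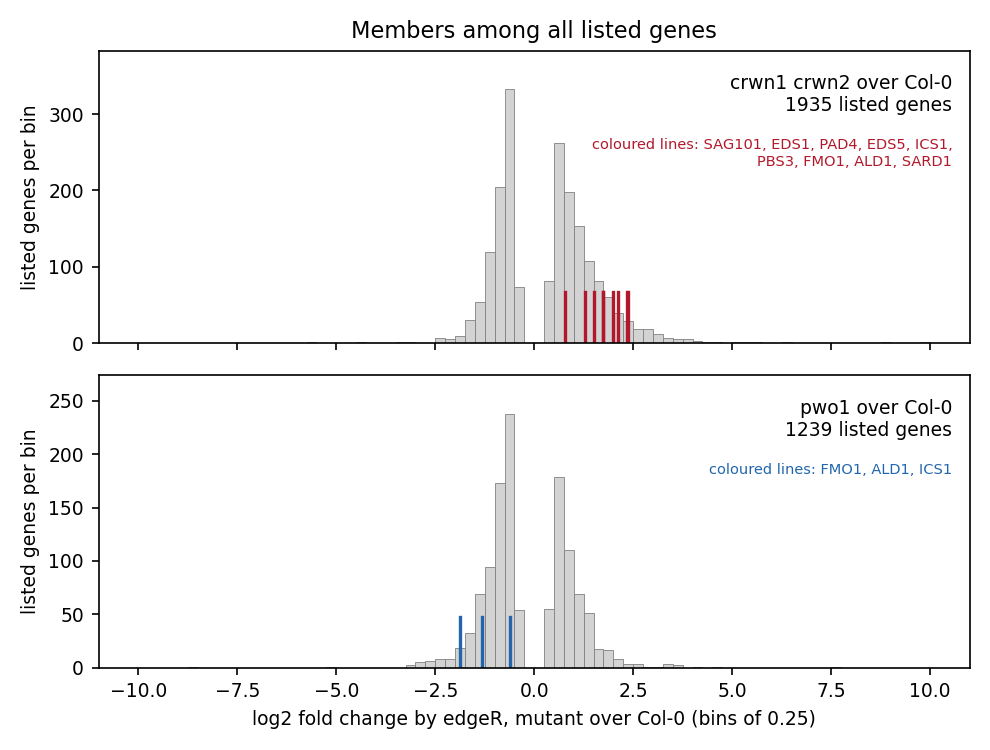
Histograms of the edgeR log2 fold changes of all genes in the authors' deposited tables for crwn1 crwn2 (upper panel, 1935 genes) and pwo1 (lower panel, 1239 genes), with the number of genes per bin on the y axis and the members as coloured lines. The 9 members in crwn1 crwn2 lie on the higher side and the 3 in pwo1 on the lower side, and genes near 0 are not listed in either table.

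By size of change, 8 of the 9 listed members lay above the median of the higher genes in crwn1 crwn2, and SAG101 below it. SARD1, ALD1, FMO1 and PBS3 stood at ranks 91, 97, 136 and 151 among the 1093 genes listed as higher in the authors' deposited table. ICS1, EDS5, PAD4 and EDS1 followed at ranks 208, 214, 286 and 382, and SAG101 at rank 724, by fold change in the authors' deposited table. Cuffdiff gave close values, differing from those of edgeR by at most 0.14 on the log2 scale over the 9 members, with SAG101 at 0.64 by Cuffdiff in the authors' deposited table.

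The second comparison asked how the same genes differed between pwo1 and Col-0. In pwo1, 3 of the 10 were lower, none was higher and 7 were not listed, where 1.87% of all 38097 genes considered were listed as lower. The share among protein-coding genes was 2.5%. The members that fell were FMO1, ALD1 and ICS1, so both N-hydroxypipecolic acid genes and the first enzyme gene of the isochorismate route were among them. SARD1, CBP60G, EDS5, PBS3, EDS1, PAD4 and SAG101 were not listed for pwo1. PWO1 (AT3G03140) is not in the authors' deposited table for pwo1, so the direction of its values is read from the header, which is worded like that of the crwn1 crwn2 table.

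FMO1 had the largest fall. The authors' deposited table gave it a log2 fold change of -1.88, which is 3.67-fold lower in pwo1 than in Col-0 (edgeR p = 1.51e-04), rank 41 among the 712 genes listed as lower. ALD1 was at -1.33, or 2.51-fold lower, in the authors' deposited table (edgeR p = 0.00285). ICS1 was at -0.62, or 1.54-fold lower, in the authors' deposited table (edgeR p = 0.00238). Only FMO1 kept an adjusted p under 0.05 when the listed p-values of the authors' deposited table were adjusted over all annotated genes by the Benjamini-Hochberg method, at 0.00986 as an upper bound; that rule was met by 1.53% of all genes considered, as lower in pwo1. The bounds for ICS1 and ALD1 in pwo1 were 0.0815 and 0.0941, computed from the authors' deposited table, so these falls are not shown to pass that threshold. A p under 0.001 by both tools was met by FMO1 alone among the members, against 1.31% of all genes considered, and a fall of at least 2-fold by FMO1 and ALD1, against 0.648%, in the authors' deposited table. In crwn1 crwn2 the upper bound of the adjusted p was under 0.05 for each of the 9 listed members, the largest being 0.0019. A bound under 0.05 was met by 2.46% of all genes considered, as higher, in the authors' deposited table.

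The third comparison set the mutants beside each other for the 3 members listed in both tables. ICS1, ALD1 and FMO1 were higher in crwn1 crwn2 and lower in pwo1, relative to the same Col-0 libraries. Over all genes, 508 were listed for both mutants. Of the 27443 protein-coding genes whose promoter windows were read, 38 were higher in crwn1 crwn2 and lower in pwo1, these 3 included. For FMO1 the authors' deposited tables gave 2.12 in crwn1 crwn2 and -1.88 in pwo1, a difference of 4.0 on the log2 scale (95% interval 2.69 to 5.30). For ALD1 they gave 2.34 in crwn1 crwn2 and -1.33 in pwo1 in the authors' deposited tables, a difference of 3.67 (95% interval 2.47 to 4.86). For ICS1 the authors' deposited tables gave 1.75 in crwn1 crwn2 and -0.62 in pwo1, which differ by 2.37 (95% interval 1.78 to 2.97).

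The intervals are approximate and give the size of a difference, not a test of it. Their standard errors were implied by the edgeR p-values of the authors' deposited tables under a normal distribution. A gene listed in both tables in opposite directions must have an interval away from 0 by this measure, so no p is given for such a gene, and the intervals add no evidence to the listings. The Col-0 libraries common to both comparisons were treated as separate, which makes the standard errors too large. The sign of the pwo1 values again rests on the header.

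**Figure D3:**
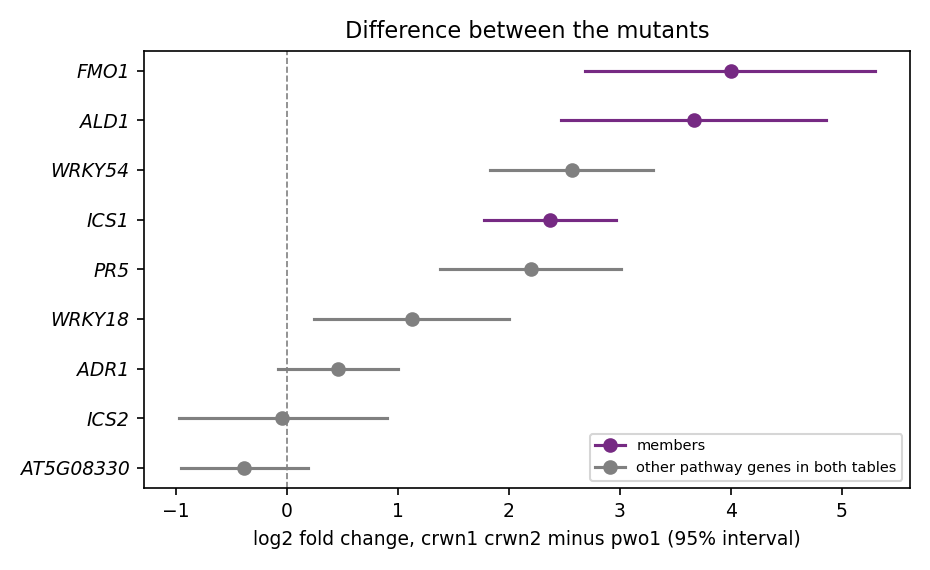
Difference of the log2 fold changes against Col-0, crwn1 crwn2 minus pwo1 (x axis), for the 9 genes of the pathway lists found in both of the authors' deposited tables; points are differences, lines 95% intervals from implied standard errors, purple the members and grey other genes. FMO1, ALD1 and ICS1 lie at 4.0, 3.67 and 2.37, with intervals that the listing in opposite directions keeps from 0, while the intervals of ADR1, ICS2 and AT5G08330 include 0.

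The rest of the pathway was read from 53 further genes, grouped by role. Of these, 14 were higher, 2 lower and 37 not listed in crwn1 crwn2, and 2 were higher, 6 lower and 45 not listed in pwo1. Of all genes considered, 2.87% were listed as higher and 2.21% as lower in crwn1 crwn2, and 1.38% as higher and 1.87% as lower in pwo1, and the counts of each group below stand against these shares. A count of 1 listed gene is read as no result about its group. In the authors' deposited tables the median log2 fold change of the listed ones was 1.42 in crwn1 crwn2 and -0.52 in pwo1, against 0.53 and -0.53 over all listed genes of each table. These medians pool both directions, so they also reflect how many genes were listed each way. For crwn1 crwn2 the medians were 1.44 against 1.01 among higher genes and -1.02 against -0.76 among lower ones. For pwo1 they were 0.85 against 0.81 among higher genes and -0.73 against -0.83 among lower ones, in the authors' deposited tables. The upper bound of the adjusted p was under 0.05 for 12 of the 16 listed in crwn1 crwn2 and 4 of the 8 listed in pwo1; WRKY8, NAC019, ADR1-L1 and ICS2 missed it in crwn1 crwn2, and WRKY18, AT5G08330, NPR4 and AT4G25800 in pwo1.

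Among the 7 other enzymes and transporters of salicylic acid synthesis, 2 were higher and 1 lower in crwn1 crwn2. PAL1 and PAL2, which encode phenylalanine ammonia-lyases of the alternative route, had values of 1.04 and 0.56 by edgeR in the authors' deposited table. ICS2, the second isochorismate synthase gene, which also serves phylloquinone synthesis, was lower in both mutants, at -1.09 in crwn1 crwn2 and -1.05 in pwo1 in the authors' deposited tables. ICS2 was the only one of the 7 listed for pwo1, and the difference between the mutants was -0.04 (95% interval -0.97 to 0.90, from implied standard errors of the authors' deposited tables). ICS1 and ICS2 were thus listed in opposite directions in crwn1 crwn2, and their coding sequences were 79.7% identical over 1677 aligned bases. The upper bound of the adjusted p of ICS2 in crwn1 crwn2 was 0.106, computed from the authors' deposited table. By Cuffdiff ICS2 was at -0.85 in crwn1 crwn2 and -0.94 in pwo1 in the authors' deposited tables, less than a 2-fold change in each. EPS1, whose product acts on the conjugate made by PBS3, was listed for neither mutant.

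Of the 2 other N-hydroxypipecolic acid genes, UGT76B1, whose product attaches glucose to N-hydroxypipecolic acid and salicylic acid, was 2.87-fold higher in crwn1 crwn2 in the authors' deposited table, at a log2 fold change of 1.52, and neither was listed for pwo1. None of the 6 relatives of SARD1 and CBP60G was listed for crwn1 crwn2. The only relative listed for pwo1 was the calmodulin-binding protein gene AT4G25800, at -0.89 in the authors' deposited table.

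Of 21 transcription factor genes reported at the synthesis genes, 6 were higher and 1 lower in crwn1 crwn2, while 1 was higher and 3 were lower in pwo1. WRKY18 and WRKY46, which encode WRKY factors of immune responses, were at 2.17 and 2.16 in crwn1 crwn2 by the authors' deposited table. WRKY53, WRKY54 and WRKY8 were at 1.45, 1.40 and 1.04 there, and the NAC factor gene NAC019 was at 1.44, in the authors' deposited table for crwn1 crwn2. For WRKY53, Cuffdiff gave 1.86 in the authors' deposited table. In pwo1, WRKY18 was higher, at 1.04, and WRKY54 was lower, at -1.17, in the authors' deposited table. WRKY54, a regulator that acts with WRKY70, therefore had the same opposed directions as ICS1, ALD1 and FMO1 (difference 2.57, 95% interval 1.83 to 3.3, from implied standard errors of the authors' deposited tables). EIN3, the ethylene-signalling factor known to repress ICS1, was at -0.47 in pwo1 in the authors' deposited table. AT5G08330, the TCP factor gene also called CHE, was at -0.95 in crwn1 crwn2 and -0.57 in pwo1 in the authors' deposited tables.

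In the group of 7 genes with the EDS1 neighbour and the helper receptors, 3 were higher in crwn1 crwn2 and 1 was higher in pwo1. ADR1, a helper immune receptor that works with EDS1 and PAD4, was at 1.12 in crwn1 crwn2 and 0.66 in pwo1 in the authors' deposited tables. ADR1-L1, its relative, was at 0.54 in crwn1 crwn2 in the authors' deposited table. Of 10 salicylic acid receptors and their partners, 2 were higher in crwn1 crwn2, and these were NIMIN1 and NIMIN2, which encode small proteins that bind the receptor NPR1, with 2.78 and 2.02 by edgeR in the authors' deposited table. NPR4, a receptor that represses the response, was the only one of the 10 listed for pwo1, at -0.46 in the authors' deposited table. NPR1 and the 4 TGA factor genes of that group were listed for neither mutant.

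Of the 3 output genes PR1, PR2 and PR5, which encode pathogenesis-related proteins, PR1 and PR5 were higher in crwn1 crwn2, with 4.03 and 1.28 by edgeR in the authors' deposited table. Cuffdiff gave 3.44 for PR1 and 1.25 for PR5 in crwn1 crwn2 in the authors' deposited table. PR5 was lower in pwo1, at -0.92 in the authors' deposited table, and PR2 was listed for neither mutant.

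**Figure D4:**
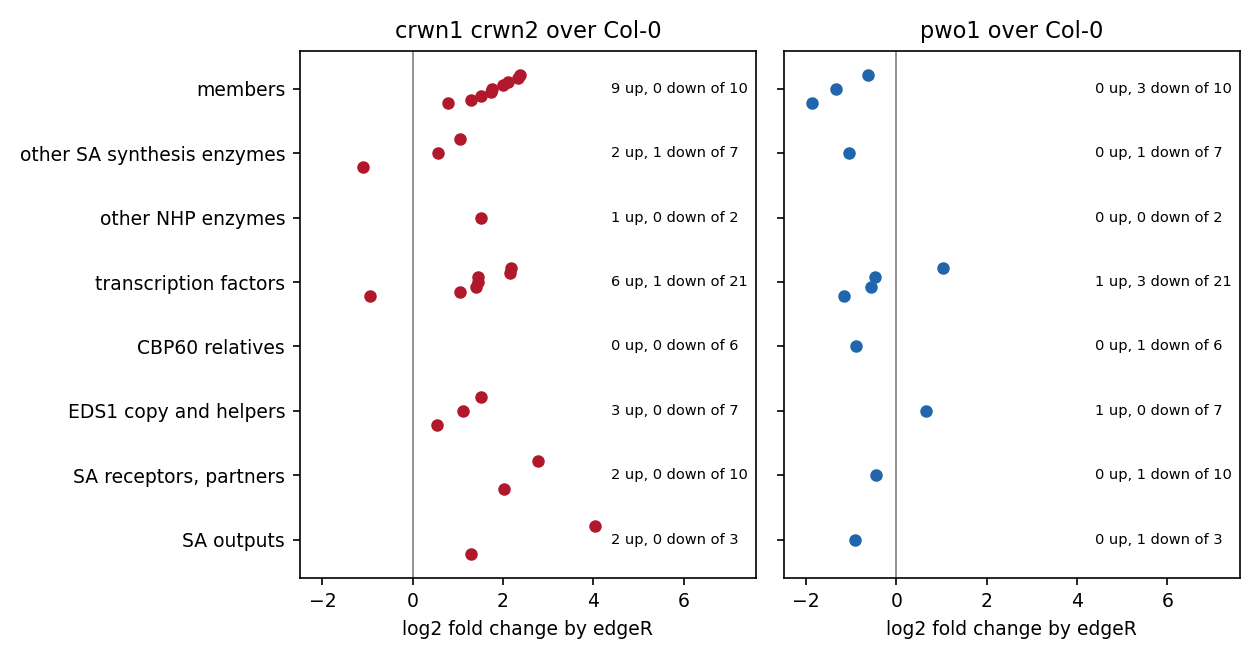
Log2 fold changes by edgeR (x axis) of the listed genes of each group in the authors' deposited tables for crwn1 crwn2 (left) and pwo1 (right), 1 point a gene, with the count of genes listed up and down of all genes in the group; SA is salicylic acid and NHP is N-hydroxypipecolic acid. In crwn1 crwn2 the members show 9 up and 0 down of 10, and in pwo1 0 up and 3 down of 10.

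The promoters of the members were searched for the motifs given above. The genes were chosen for their roles and not by motif. SARD1 and CBP60G bind promoters of both routes, so a search for GAAATTT here is not independent of that choice. GAAATTT, on either strand, was found in 3 of the 10 members, namely ICS1, ALD1 and FMO1, as the sequences above show. These are the 3 members listed in both tables, and none of the other 7 members holds it in this window. The split of 3 and 7 was made from the listings and was not tested. The motifs were chosen with earlier results of these data known. For ICS1 and ALD1 in pwo1 the upper bounds of the adjusted p were 0.0815 and 0.0941, computed from the authors' deposited table. GAAATTT was found in 14.2% of the 27443 windows of protein-coding genes read. ICS1 had 2 separate stretches, which began 129 and 96 bases before the gene start. FMO1 had 3, which began 189, 131 and 108 bases before it, and ALD1 had 1, which began 90 bases before it. A group of 38 protein-coding genes was listed as higher in crwn1 crwn2 and lower in pwo1. It was formed after the directions of the members were seen. Of these 38 genes, 5 held GAAATTT, or 13.2%. ICS1, ALD1 and FMO1 are among the 38, so 3 of the 5 are the members themselves. The 13.2% is therefore not a comparison of the members with other genes.

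The W-box was found in 3 of the 10 members, EDS5, EDS1 and PAD4, against 32.4% of all windows and 45.9% of the windows of 1080 genes higher in crwn1 crwn2. The TGA core was found in SARD1 and CBP60G, 2 of 10 members, against 23.1% of all windows. The CAMTA core was found in SARD1, 1 of 10, against 11.1% of all windows. No motif searched was found in the windows of PBS3 and SAG101. With 10 members these counts are descriptions of letters in a window, and they show neither binding nor its absence.

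**Figure D5:**
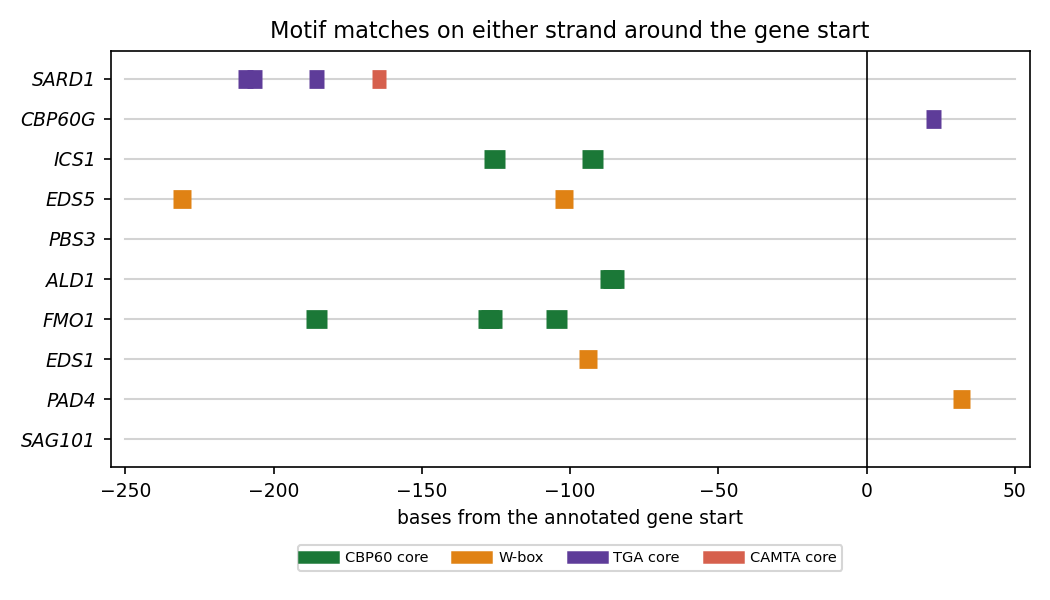
Motif matches on either strand for each of the 10 members (rows), by distance in bases from the annotated gene start (x axis, negative before the start). The CBP60 core (green) is in the rows of ICS1, ALD1 and FMO1, the W-box (orange) in those of EDS5, EDS1 and PAD4, the TGA core (purple) in those of SARD1 and CBP60G, and the CAMTA core (red) in that of SARD1.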

How the data were processed

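The deposited files are the authors' comparisons, 1 table per mutant. Per the file headers, the values are log2 fold changes and p-values, from both edgeR and Cuffdiff. Tools named in the submitters' processing notes are edgeR 3.3, Cuffdiff 2.2.1, HTSeq 0.6.1, TopHat2 2.0.12, Cufflinks 2, DiffBind 2, Trimmomatic 0.35 and FastQC 0.10, with TAIR10 as the build. The sources used here do not state filters, listing thresholds or the handling of strand. The largest p-values in the authors' deposited tables were 0.00585 (edgeR) and 0.0074 (Cuffdiff) for crwn1 crwn2 and 0.00386 and 0.00455 for pwo1, and the Cuffdiff values stop at 5.00e-05, so a gene not listed is not shown to be unchanged. Depth is unknown.

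The authors' fold changes by edgeR are the values reported. Upper bounds of adjusted p-values came from Benjamini-Hochberg adjustment over all annotated genes, with genes not listed set to a p of 1. Intervals of differences between mutants used standard errors implied by the p-values; their p-values are not reported, since for genes listed in opposite directions the listing fixes the outcome. On simulated data with normal p-values, the bound was never below the full adjustment. That had to hold, since genes not listed take the largest possible p. The implied standard errors were recovered on the same simulated data by inverting the formula that made the p-values, which had to succeed. The intervals of differences were not tested on simulated data. Gene names, positions and sequences are from RefSeq TAIR10.1, which matched 1933 of 1935 and 1236 of 1239 loci; the deposited tables carry no coordinates. Python 3.11.15, pandas 2.3.3, SciPy 1.17.1 and Biopython 1.88 were used. The members, the gene lists, the motifs and the named genes (the members, every listed gene of the lists and the mutated genes) were chosen with earlier results of these data known.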

Additional observations from a re-analysis of the deposited data

Results flagged for a closer look

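ICS1, ALD1 and FMO1 drew attention because their changes against Col-0 went opposite ways in the mutants. The listing in opposite directions fixes the outcome of a test with standard errors implied by the same p-values, so the difference was not tested independently. On the log2 scale, crwn1 crwn2 minus pwo1, the difference was 2.37 for ICS1, 3.67 for ALD1 and 4.0 for FMO1, computed from the authors' deposited tables. Each of the 3 was higher in crwn1 crwn2 and lower in pwo1, as were 38 of the 27443 protein-coding genes whose promoter windows were read, these 3 included.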

How the results depend on the processing

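Of the 9 members higher in crwn1 crwn2, 9 met an upper bound of the adjusted p under 0.05, 8 a p under 0.001 by both tools and 8 a 2-fold change by either tool, SAG101 being the exception. Of the 3 lower in pwo1, 1 met the bound and 1 the p under 0.001 by both tools, in each case FMO1, and 2 a 2-fold change by either tool, ALD1 and FMO1. With Cuffdiff the direction of each listed member was kept, and the differences between the mutants were 2.29 for ICS1, 3.67 for ALD1 and 4.06 for FMO1. Adjusting over protein-coding genes moved no member across 0.05. Counting all listed genes, a p under 0.001 by both tools left 1272 of 1935 for crwn1 crwn2 and 812 of 1239 for pwo1. A 2-fold change by edgeR left 782 and 430, and these counts pool both directions. Of the 1093 genes higher in crwn1 crwn2, 936 met the bound, 792 the p rule and 552 the 2-fold rule. Of the 712 genes lower in pwo1, 584, 500 and 247 did. No paired analysis was possible because the tables hold no values per library, and for the same reason no replicate was left out.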
